A study of Mus musculus with 19 samples.

Results

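Granulocyte-monocyte progenitors (GMP) labelled PR+/- were compared with wild-type GMP over 15781 genes, on 6 of the 19 exon arrays of a series on sorted mouse bone marrow progenitors. The groups were taken from the sample titles, which gave 2 PR+/- GMP arrays and 4 wild-type GMP arrays. The series title puts the question whether PML-RARA needs Dnmt3a, a DNA methyltransferase, to cause leukaemia, and PR is read here as PML-RARA because the labels do not spell it out. The other arrays used here hold PR+/- Dnmt3a-/- GMP (4) and Dnmt3a-/- GMP (3). Neither the PR+/- nor the wild-type mice are labelled as lacking Dnmt3a. The labels name C57Bl/6J for the wild-type mice but no strain, promoter or locus for PR, no age for either group, and do not say whether each array stands for its own animal. Every p-value below therefore rests on the spread between arrays, which may be technical. The PR+/- arrays carry another style of title than the wild-type arrays, so genotype and array set cannot be told apart in any result of this comparison.

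PML-RARA joins the nuclear body protein PML to the retinoic acid receptor alpha, binds DNA with RXR partners and recruits corepressors to retinoid-responsive and other myeloid genes. It is the initiating fusion of acute promyelocytic leukaemia, in which granulocytic precursors accumulate at the promyelocyte stage. GMP are the bipotent precursors of neutrophils and monocytes, and the sorted gate is also known to contain precursors of basophils, mast cells and eosinophils.

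Each value below is the mean log2 intensity of all probe sets that carry 1 gene symbol alone, and each difference is PR+/- minus wild type on the log2 scale with its standard error (SE). A gene was said to rise or fall where limma gave a Benjamini-Hochberg adjusted p below 0.05 over all 15781 genes. The median level of 830 olfactory receptor genes, 2.78, served as background.

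The GMP genes Cd34, Kit and Mpo were present in both groups. Cd34, of the sort and identity genes, was at 10.57 and 10.11 on the PR+/- arrays. Both lay above the wild-type values of 10.04, 9.79, 9.66 and 9.74, and the gene did not pass (adjusted p = 0.292). Kit, the stem cell factor receptor of the gate, stood at 8.86 and 9.13 on the PR+/- arrays and at 9.20, 9.01, 9.22 and 9.24 in wild type. Mpo, the myeloperoxidase of primary granules, stood at 12.93 and 12.68 on the PR+/- arrays and at 12.89, 12.93, 12.81 and 12.84 in wild type. Ly6a, the gene of the stem cell antigen that the gate excludes, was at 4.46 and 4.04 on the PR+/- arrays and at 3.48, 3.72, 3.89 and 3.41 in wild type. Of 14 measured sort and identity genes, 2 rose, the interleukin-7 receptor gene Il7r and the common beta chain gene Csf2rb, and 1 fell, Csf1r, where 2.19% of all genes rose and 0.881% fell. Without PR+/- replicate 1, or without wild-type replicates 2, 3 or 4, 0 of them rose, and Csf1r still fell.

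Wild-type arrays differed among themselves. Genes of the immediate early and heat shock responses, known to react to stress, had a list mean of 6.26 and 6.06 on the PR+/- arrays, against 7.33, 7.34, 6.18 and 6.18 on wild-type replicates 1 to 4. The mean of the Y-linked genes Eif2s3y and Kdm5d was 6.87 and 6.73 on the PR+/- arrays, against 6.84, 7.04, 6.95 and 3.25 on wild-type replicates 1 to 4. None of the 23 measured immediate early and heat shock genes passed the test, where 3.07% of all genes passed. Their median difference of -0.66 became -0.96 against wild-type replicates 1 and 2 and -0.01 against replicates 3 and 4. In the main fit 484 genes passed. Against wild-type replicates 1 and 2 alone 331 passed, 233 of them among the 484. Against replicates 3 and 4 alone 218 passed, 177 of them among the 484. On arrays of high Y-linked signal alone the numbers were 163 and 152, and without the arrays of high immediate early level 500 and 311. A model that included the Y-linked level gave 349, of which 335 were shared. The other fits used fewer arrays, and the part of array number in their counts was not tested.

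The genes joined in the fusion are Rara and Pml. Rara, the retinoic acid receptor alpha, was at 6.82 and 6.40 on the PR+/- arrays, against 5.94, 5.22, 6.08 and 5.73 in wild type. Both PR+/- arrays lay above all wild-type arrays, the difference of the means was 0.87 ± 0.24, and the adjusted p of 0.0704 missed the threshold. The mean difference was positive in 12 of the 12 Rara probe sets, between 0.14 and 1.76, and in 7 of them both PR+/- arrays lay above every wild-type array. Pml was at 7.29 and 7.41 on the PR+/- arrays and at 7.40, 7.02, 7.22 and 6.99 in wild type. In 2 of its 17 probe sets both PR+/- arrays lay above wild type. Among all genes both PR+/- arrays lay above wild type in 16.1%, and the share over all probe sets was not counted. Probe sets of 1 gene are read on the same arrays, so counts of them, here and below, add no replicates. Probe sets carry a gene symbol only, so signal of a fusion transcript and of the endogenous gene cannot be told apart.

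In a widely used mouse model the fusion sits in the Ctsg locus, which encodes the granule protease cathepsin G, but the labels do not give the locus. Ctsg was at 11.53 and 11.44 on the PR+/- arrays, within the wild-type values of 11.30, 11.77, 11.65 and 11.62. Of the 20 measured genes nearest to Ctsg, 10 on each side in the RefSeq order, 1 rose, where 2.19% of all genes rose. It was the basophil protease gene Mcpt8, next to Ctsg among the measured genes. Mcpt8 was at 11.77 and 11.67 on the PR+/- arrays and between 9.26 and 10.46 in wild type. Its mean was also 11.32 on the Dnmt3a-/- arrays, which are not labelled PR+/-, and 11.83 on the PR+/- Dnmt3a-/- arrays. The differences of the other 19 ran from -1.16 to 0.92. Rxra, the heterodimer partner, rose: it was at 6.73 and 5.96 on the PR+/- arrays, against 4.60, 4.97, 4.67 and 4.84 in wild type, with a difference of 1.57 ± 0.22 (adjusted p = 0.00213). It was the 1 gene of 11 measured among Pml, Rara and the retinoid receptors that passed, where 3.07% of all genes passed.

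Across all genes 484 of 15781 passed (3.07%), of which 345 rose (2.19%) and 139 fell (0.881%). Unadjusted p-values below 0.05 were reached by 2752 genes. All 484 called genes had both PR+/- arrays on one side of all 4 wild-type arrays, a separation found in 28.5% of all genes. The median difference of all genes was 0.00, that of the genes that rose 1.15 and that of the genes that fell -0.96. A change of at least 2 on the log2 scale was found in 47 genes that rose and 6 that fell. The called genes named in the text that were lost in at least 4 of the 6 fits without 1 array were Adgre1, Alox15, Anxa1, Ccnd1, Cd93, Csf2rb, Ctss, Ddx58, E230016K23Rik, F5, Gfi1b, H3c15, Hgf, Ifi203, Il6, Il7r, Itgb3, Lcn2, Map7d3, Nfxl1, Thbd and Zeb2.

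**Figure D1:**
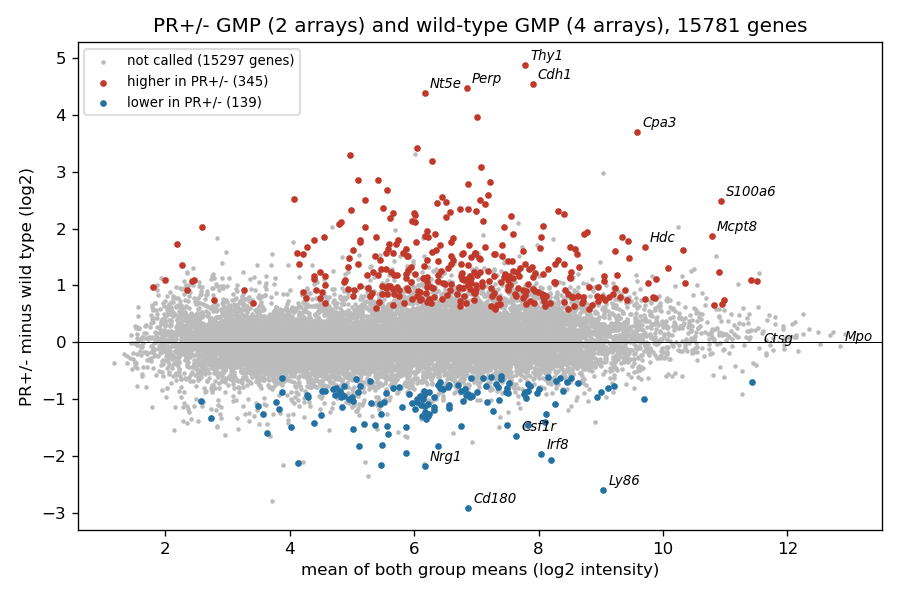
Difference of PR+/- and wild-type GMP (log2, vertical) against the mean of both group means (log2 intensity, horizontal) for all measured genes, with the 345 genes that rose in red and the 139 that fell in blue. The largest differences lie above 0, with Thy1, Cdh1, Perp and Nt5e at the top, while Mpo and Ctsg lie near 0 at high levels.

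PR+/- replicate 1 lay farther from the wild-type mean than replicate 2 in 404 of the 484 called genes. In the genes that rose, the median distance was 1.28 for replicate 1 and 0.99 for replicate 2, and in those that fell it was -1.06 and -0.89. Without replicate 1 only 43 genes passed, 33 higher and 10 lower, and without replicate 2 284 passed. Without wild-type replicate 4 290 genes passed. List counts in fits without 1 array are to be read beside these totals, since a lower count there is not particular to a list. Of the 68 named genes that passed, 51 were lost without PR+/- replicate 1, 22 without PR+/- replicate 2 and between 13 and 23 without each wild-type replicate in turn, while all 68 kept their direction under every one of 22 alternative settings. The 15 that passed under all 22 were Thy1, Cdh1, Perp, Nt5e, Abp1, Cpa3, Kcne3, Thbs4, Itga2b, Cd9 and Hdc among those that rose, and Cd180, Ly86, Nrg1 and Csf1r among those that fell.

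**Figure D2:**
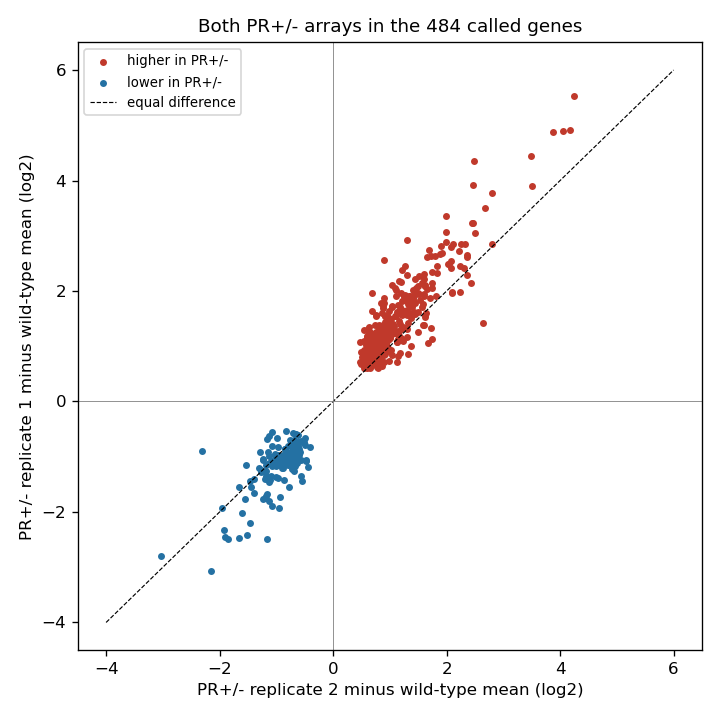
Distance of PR+/- replicate 2 (horizontal) and of PR+/- replicate 1 (vertical) from the wild-type mean, in log2 units, for the 484 called genes; red points rose and blue points fell. Both replicates lie on the same side of 0 for every gene, and 404 genes lie farther out in replicate 1 than in replicate 2.

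Of the gene lists examined, basophil and mast cell genes held the most rises in PR+/- GMP. Of 15 measured members 6 rose and 0 fell, where 2.19% of all genes rose and 0.881% fell. The list median was 0.68, with a positive difference in 9 members and a negative one in 6. Both PR+/- arrays lay above all wild-type arrays in 9 members, a separation found in 16.1% of all genes. These cells carry granules rich in histamine and proteases and bind IgE. The 6 genes that rose were Cpa3, Ms4a2, Il6, Gata2, Mcpt8 and Hdc. Promoters are shown for the 2 of them with the largest rise and for Mcpt8, the measured protease gene next to Ctsg. They are the 250 bases before the annotated start in RefSeq (GRCm38.p6), all 3 on the minus strand, at chr3:20242182-20242431, chr19:11623720-11623969 and chr14:56085198-56085447, with capitals on GATA hexamers:
Cpa3: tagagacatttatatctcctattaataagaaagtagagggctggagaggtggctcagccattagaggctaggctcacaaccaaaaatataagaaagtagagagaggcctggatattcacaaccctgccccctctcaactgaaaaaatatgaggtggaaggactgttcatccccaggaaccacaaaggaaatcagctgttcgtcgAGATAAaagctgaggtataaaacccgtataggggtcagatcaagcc
Ms4a2: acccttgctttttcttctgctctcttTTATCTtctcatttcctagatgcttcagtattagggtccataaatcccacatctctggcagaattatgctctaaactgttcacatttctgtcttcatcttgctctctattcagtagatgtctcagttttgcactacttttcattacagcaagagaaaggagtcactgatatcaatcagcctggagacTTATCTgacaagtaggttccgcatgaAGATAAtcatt
Mcpt8: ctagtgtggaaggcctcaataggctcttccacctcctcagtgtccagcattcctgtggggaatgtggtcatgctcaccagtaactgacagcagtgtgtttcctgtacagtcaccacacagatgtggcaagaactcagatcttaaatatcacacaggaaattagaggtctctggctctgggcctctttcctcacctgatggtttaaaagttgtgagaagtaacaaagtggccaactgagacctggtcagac

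The hexamers searched on both strands were the letters GATA with A or T before them and A or G after them, a form that GATA factors are known to bind. Cpa3 held 1 such match, Ms4a2 held 3 and Mcpt8 held 0. At least 1 match stood in the promoter of 9 of 13 basophil and mast cell genes with a promoter sequence, of 25.93% of 270 genes that rose, of 28.7% of 115 that fell and of 25.3% of all 12609 measured genes with one. These are matches of letters in this window and not sites.

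Cpa3, the mast cell carboxypeptidase, was at 11.64 and 11.24 on the PR+/- arrays, against 7.41, 8.63, 7.81 and 7.10 in wild type. The groups did not overlap, and the gene was higher in PR+/- GMP by 3.70 ± 0.36 (adjusted p = 0.000231), with both arrays above wild type in 13 of 13 probe sets. Ms4a2, the beta subunit of the high-affinity IgE receptor, was at 8.65 and 8.61 on the PR+/- arrays, against 5.47, 5.63, 6.50 and 5.63 in wild type. It was 7.09-fold higher, by 2.83 ± 0.43 (adjusted p = 0.00452). Fcer1a, the alpha subunit of the same receptor, was at 6.15 and 7.22 on the PR+/- arrays and at 4.34, 5.02, 5.19 and 4.29 in wild type. Its groups did not overlap either, and its adjusted p of 0.262 missed the threshold.

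Gata2, a transcription factor of stem cells, mast cells and basophils, was at 9.78 and 9.30 on the PR+/- arrays, against 7.28, 7.96, 7.01 and 6.87 in wild type, a rise of 2.26 ± 0.30 (adjusted p = 0.00169). Hdc, the histidine decarboxylase that makes histamine, was at 10.70 and 10.39 on the PR+/- arrays, against 8.71, 8.86, 8.998 and 8.91 in wild type, a rise of 1.68 ± 0.18 (adjusted p = 0.000447). Mcpt8, a protease of basophil granules, was at 11.77 and 11.67 on the PR+/- arrays, against 9.73, 10.46, 9.98 and 9.26 in wild type, a rise of 1.86 ± 0.28 (adjusted p = 0.00375). The PR+/- arrays thus lay within 0.5 of each other for these 3 genes, while wild-type arrays spread over more than 1 for Gata2 and Mcpt8. Il6, a cytokine that mast cells release, rose by 2.33 ± 0.50 (adjusted p = 0.0247).

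Other members of the list did not pass. Prss34, a protease of basophils, was at 8.48 and 9.04 on the PR+/- arrays, below all wild-type values of 9.49, 9.35, 10.05 and 9.63, with a difference of -0.87 ± 0.27 (adjusted p = 0.0997). Tpsb2, a mast cell tryptase, differed by -0.26 and Il4 by 0.68, and neither passed. The list mean was 7.69 and 7.66 on the PR+/- arrays and between 6.39 and 6.87 in wild type. It was also 7.68, 7.70 and 7.23 on the Dnmt3a-/- arrays, which are not labelled PR+/-. On the PR+/- Dnmt3a-/- arrays it lay between 7.35 and 7.97. Only 2 members rose without PR+/- replicate 1. In these bulk samples, more cells of a type and more RNA per cell cannot be told apart.

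**Figure D3:**
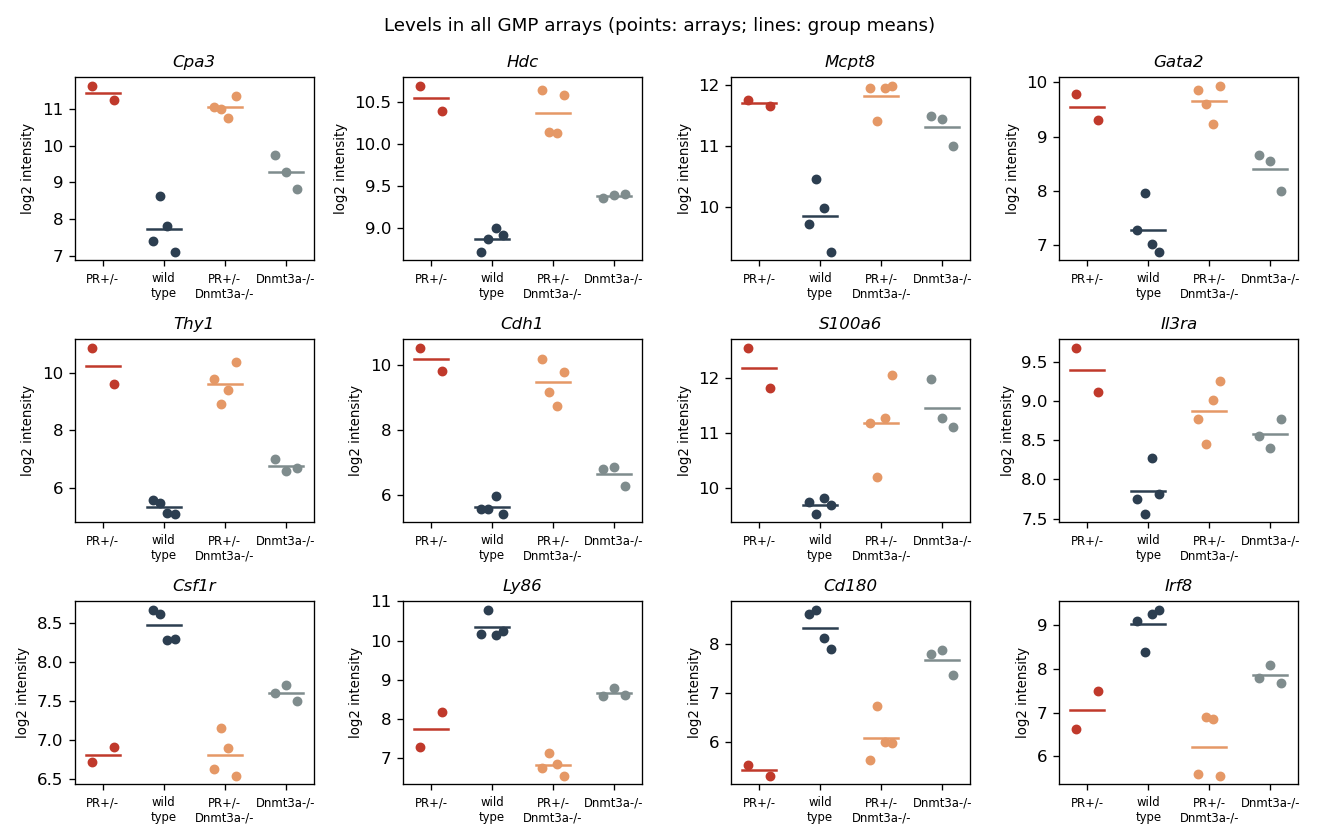
Levels (log2 intensity, vertical) of 12 genes on all 13 GMP arrays, in PR+/-, wild-type, PR+/- Dnmt3a-/- and Dnmt3a-/- GMP from left to right; points are arrays and lines are group means. The upper row shows basophil and mast cell genes chosen from the 6 that rose in PR+/-. The lower row shows monocyte genes chosen from the 5 that fell.

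The 4 largest rises were in genes of surface or membrane proteins. Thy1, a membrane glycoprotein best known from T cells, was at 10.87 and 9.60 on the PR+/- arrays, against 5.61, 5.50, 5.16 and 5.11 in wild type. This was the largest rise of all called genes, 29.6-fold and 4.89 ± 0.37 (adjusted p = 4.83e-05). Thy1 was the 1 gene of 12 measured T and NK cell genes that passed, where 3.07% of all genes passed. Cdh1, the adhesion protein E-cadherin, was at 10.54 and 9.81 on the PR+/- arrays, against 5.58, 5.58, 5.96 and 5.42 in wild type, a 23.3-fold rise of 4.54 ± 0.35 (adjusted p = 4.83e-05). Both PR+/- arrays lay above every wild-type array in 18 of 18 probe sets for Cdh1 and in 8 of 8 for Thy1.

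Perp, a membrane protein of desmosomes and a p53 target, was at 9.51 and 8.67 on the PR+/- arrays, against 4.60, 4.71, 4.67 and 4.49 in wild type, a 22.2-fold rise (adjusted p = 0.000133). It was the 1 gene of 16 measured p53 targets that passed, where 3.07% of all genes passed. Nt5e, the surface enzyme CD73 that makes adenosine, was at 8.87 and 7.85 on the PR+/- arrays, against 4.07, 3.74, 3.86 and 4.27 in wild type, a 20.8-fold rise (adjusted p = 0.00112). The symbol Abp1 rose by 3.97 ± 0.35 (adjusted p = 0.000133), but RefSeq lists it as an older name of both Aoc1, a diamine oxidase that degrades histamine, and Dbnl, so its identity is uncertain. For Perp, Nt5e and Abp1 the lowest PR+/- array stood more than 3 above the highest wild-type array.

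The rest of the 15 largest rises ranged from 3.41 to 2.68. They include the secreted glycoprotein gene Fstl1 (3.41 ± 0.55), the fatty acid desaturase gene Fads2 (3.08 ± 0.40), the chemokine receptor gene Ccr1 (2.85 ± 0.54), the potassium channel subunit gene Kcne3 (2.85 ± 0.33), the lectin-like gene Clec2i (2.78 ± 0.58) and the thrombospondin gene Thbs4 (2.68 ± 0.31). H3c15, a histone gene with near-identical copies and 1 probe set, rose by 3.29 ± 0.76, and its wild-type values spread from 1.74 to 5.31. Fstl1 was at 8.68 and 6.81 on the PR+/- arrays, against 4.53, 4.35, 4.02 and 4.43 in wild type. Of 17 measured chemokine and chemokine receptor genes, 1 passed, Ccr1, where 3.07% of all genes passed.

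**Figure D4:**
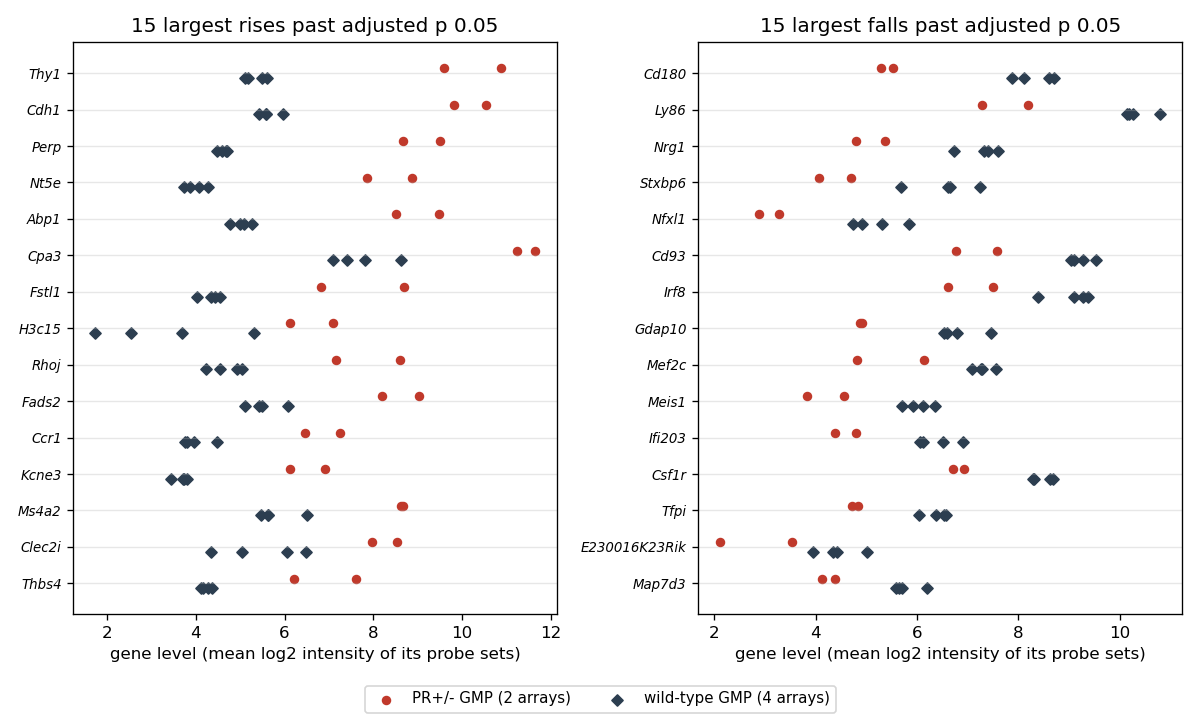
Levels (mean log2 intensity, horizontal) of the 15 largest rises (left) and the 15 largest falls (right) among the called genes; red circles are the 2 PR+/- arrays and dark diamonds the 4 wild-type arrays. In every gene shown both PR+/- arrays lie outside the range of the wild-type arrays.

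Genes of the monocyte lineage were among the largest falls. Of 24 measured monocyte, macrophage and dendritic genes, 5 fell (Cd180, Ly86, Irf8, Csf1r and Ctss) and 2 rose (Id2 and Adgre1), with a list median of -0.18. Among all genes 0.881% fell and 2.19% rose. A negative difference was found in 14 of the 24 and a positive one in 10. Both PR+/- arrays lay below all wild-type arrays in 7 of the 24, a separation found in 12.3% of all genes. Without PR+/- replicate 1 the counts were 3 lower and 0 higher, without wild-type replicate 3 they were 3 lower and 2 higher, and without wild-type replicate 4 they were 3 lower and 1 higher.

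Csf1r, the receptor of macrophage colony-stimulating factor, was at 6.71 and 6.92 on the PR+/- arrays, against 8.68, 8.62, 8.29 and 8.31 in wild type. It was 3.15-fold lower, by -1.66 ± 0.19 (adjusted p = 0.000711), and both PR+/- arrays lay below all wild-type arrays in 28 of 28 probe sets. Cd180, a Toll-like surface receptor, was at 5.53 and 5.29 on the PR+/- arrays, against 8.61, 8.70, 8.12 and 7.88 in wild type, a 7.55-fold fall (adjusted p = 0.000291). Ly86, which encodes the partner protein of Cd180, was at 7.28 and 8.19 on the PR+/- arrays, against 10.17, 10.79, 10.14 and 10.26 in wild type, a 6.09-fold fall (adjusted p = 0.000235). The receptor and its partner gave the 2 largest falls of all called genes.

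Irf8, the transcription factor that directs progenitors to monocytes and dendritic cells, was at 6.62 and 7.51 on the PR+/- arrays, against 9.10, 8.39, 9.27 and 9.37 in wild type, a fall of -1.97 ± 0.42 (adjusted p = 0.0232). Ctss, the lysosomal protease cathepsin S, fell by -1.46 ± 0.33 (adjusted p = 0.0300). Irf8 was lost without PR+/- replicate 1 and without wild-type replicates 3 or 4, and Ctss also without wild-type replicate 1. Other genes of the lineage did not pass. F13a1, coding for a coagulation factor of monocytes, was at 10.17 and 9.63 on the PR+/- arrays and at 9.97, 9.94, 10.31 and 10.41 in wild type. Ccr2, the chemokine receptor of inflammatory monocytes, was at 8.89 and 8.65 on the PR+/- arrays and at 8.94, 8.96, 8.59 and 8.69 in wild type. Klf4, a factor of monocyte differentiation, differed by -1.02 ± 0.27 (adjusted p = 0.0634).

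The 2 members that rose went the other way. Id2, an inhibitor of helix-loop-helix factors, was at 7.57 and 7.87 on the PR+/- arrays, against 5.28, 5.30, 5.56 and 5.58 in wild type, a rise of 2.29 ± 0.37 (adjusted p = 0.00534). Adgre1, a macrophage surface protein, was at 7.26 and 5.97 on the PR+/- arrays, against 5.11, 5.12, 5.76 and 5.15 in wild type (adjusted p = 0.0344). Its lower PR+/- array lay just above the highest wild-type array, replicate 3. Of 9 measured MHC class II genes, which dendritic cells and B cells use to present antigen, 0 passed, where 3.07% of all genes passed.

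The other large falls were of mixed function. Nrg1, a ligand of ErbB receptors, was at 4.80 and 5.37 on the PR+/- arrays, against 7.33, 6.73, 7.39 and 7.60 in wild type, a 4.53-fold fall (adjusted p = 0.000447). Cd93, a surface protein of early progenitors, was at 6.76 and 7.58 on the PR+/- arrays, against 9.05, 9.09, 9.28 and 9.54 in wild type, a fall of -2.07 ± 0.45 (adjusted p = 0.0278). Meis1, a homeobox partner of HOX proteins, was at 3.83 and 4.57 on the PR+/- arrays, against 6.11, 6.35, 5.71 and 5.92 in wild type, a fall of -1.83 ± 0.38 (adjusted p = 0.0207). Meis1 was the 1 gene of 22 measured stem and multipotent progenitor genes that passed, where 3.07% of all genes passed. The median of that list was -0.16. The transcription factor gene Mef2c fell by -1.83 ± 0.39, and the remaining large falls, Stxbp6, Nfxl1, Gdap10, Ifi203, Tfpi, E230016K23Rik and Map7d3, lay between -2.17 and -1.53.

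Genes known as high in human acute promyelocytic leukaemia were taken as a list of 14, of which 13 were measured. Of these 4 rose and 1 fell, with a median of 0.46, where 2.19% of all genes rose and 0.881% fell. Cd33, a sialic acid binding receptor of myeloid cells, was at 9.18 and 8.14 on the PR+/- arrays, against 6.91, 6.22, 6.41 and 6.22 in wild type, a 4.66-fold rise (adjusted p = 0.00515). Cd9, a tetraspanin, was at 8.40 and 8.53 on the PR+/- arrays, against 6.51, 5.97, 6.48 and 6.74 in wild type, a 4.10-fold rise (adjusted p = 0.00114). Hgf, the hepatocyte growth factor, was at 7.27 and 6.38 on the PR+/- arrays, against 5.48, 5.51, 5.37 and 5.57 in wild type, a rise of 1.34 ± 0.33 (adjusted p = 0.0441). Its receptor gene Met fell, with 6.73 and 6.99 on the PR+/- arrays against 7.86, 7.60, 8.06 and 7.98 in wild type, by -1.02 ± 0.20 (adjusted p = 0.0147). Hgf was lost without each array in turn other than PR+/- replicate 2, and Met was lost without PR+/- replicate 1. Stab1, Jup, S100a10 and Plau did not pass, with differences of 0.46, 0.65, 0.86 and -0.11. The counts of this list were 1 higher and 0 lower without PR+/- replicate 1.

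Anxa2, whose protein brings plasminogen and its activator together at the cell surface, rose by 1.32 ± 0.25 (adjusted p = 0.0128) and belongs to both this list and the coagulation list. Of 17 measured coagulation and fibrinolysis genes, 3 rose and 2 fell, where 2.19% of all genes rose and 0.881% fell. The factor V gene F5 was at 7.37 and 6.95 on the PR+/- arrays, against 5.50, 4.83, 5.80 and 6.01 in wild type, a rise of 1.62 ± 0.38 (adjusted p = 0.0385). Serpine2, an inhibitor of thrombin and other proteases, rose by 1.65 ± 0.29 (adjusted p = 0.00842). The 2 members that fell also encode proteins that limit coagulation: Tfpi, the tissue factor pathway inhibitor, was at 4.83 and 4.72 on the PR+/- arrays, against 6.04, 6.54, 6.37 and 6.58 in wild type (-1.61 ± 0.31, adjusted p = 0.0148), and Thbd, thrombomodulin, fell by -1.08 ± 0.25 (adjusted p = 0.0398). Without PR+/- replicate 1 the list had 0 higher and 0 lower, without PR+/- replicate 2 it had 2 higher and 0 lower, without wild-type replicate 3 it had 2 higher and 1 lower, and without wild-type replicate 4 it had 3 higher and 1 lower.

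The S100 and annexin families are calcium-binding proteins. Of 15 measured members 4 rose, S100a6, S100a4, Anxa1 and Anxa2, and 0 fell, where 2.19% of all genes rose and 0.881% fell. A positive difference was found in 13, and the median was 0.60. The list mean was 9.79 and 9.57 on the PR+/- arrays and between 8.84 and 9.01 in wild type. It was also 9.59, 9.43 and 9.43 on the Dnmt3a-/- arrays, and between 8.84 and 9.51 on the PR+/- Dnmt3a-/- arrays. S100a6 was at 12.54 and 11.81 on the PR+/- arrays, against 9.74, 9.53, 9.83 and 9.69 in wild type, a 5.58-fold rise (adjusted p = 0.00503). S100a4 was at 10.36 and 9.70 on the PR+/- arrays, against 8.59, 8.57, 8.30 and 8.23 in wild type, a 3.04-fold rise (adjusted p = 0.0105). Anxa1, the protein that limits neutrophil inflammation, rose by 1.31 ± 0.30 (adjusted p = 0.0327), with both PR+/- arrays above wild type in 12 of 12 probe sets. The neutrophil members S100a8 and S100a9 also had both PR+/- arrays above all wild-type arrays, and they did not pass: S100a9 was at 12.49 and 12.50 on the PR+/- arrays and at 12.05, 12.09, 11.88 and 11.96 in wild type. In the fit without PR+/- replicate 1, 0 members of this list rose.

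Granule genes were read in 2 lists, primary granule genes and genes of secondary granules and neutrophil maturation. Of 9 measured primary granule genes 0 passed, where 3.07% of all genes passed, and the median was -0.06. Of 21 measured genes of secondary granules and neutrophil maturation 2 rose and 0 fell, where 2.19% of all genes rose and 0.881% fell. A positive difference was found in 20 of the 21, and the median was 0.68. Both PR+/- arrays lay above all wild-type arrays in 15 of the 21, a separation found in 16.1% of all genes. Lcn2, the iron-scavenging lipocalin of neutrophils, was at 11.43 and 10.85 on the PR+/- arrays, against 9.99, 9.78, 9.22 and 9.09 in wild type, a rise of 1.62 ± 0.37 (adjusted p = 0.0336).

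Larger single differences in the maturation list missed the threshold. Mmp8, the neutrophil collagenase, was at 9.11 and 8.32 on the PR+/- arrays and at 7.27, 7.32, 5.93 and 5.95 in wild type, a difference of 2.10 ± 0.55 (adjusted p = 0.0570). Chil3, a chitinase-like secreted protein, was at 9.10 and 9.17 on the PR+/- arrays and at 7.44, 7.17, 7.36 and 7.33 in wild type, and its adjusted p was 0.203. The gap of more than 1 between the groups of Chil3 was wide beside the spread within either, while its SE of 0.71 is drawn from all 13 GMP arrays. Ltf, lactoferrin, was at 8.07 and 7.9998 on the PR+/- arrays and at 7.56, 6.84, 6.98 and 7.05 in wild type. The list mean was 9.01 and 8.79 on the PR+/- arrays and between 7.96 and 8.33 in wild type. It was also 9.89, 8.92 and 8.96 on the Dnmt3a-/- arrays, and between 7.77 and 8.63 on the PR+/- Dnmt3a-/- arrays. When the PR+/- Dnmt3a-/- arrays were left out of the fit 5 members rose, 0 passed without either PR+/- replicate or without wild-type replicate 4, and 1 passed without each other wild-type replicate.

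Eosinophil genes split the wild-type arrays. Epx, the eosinophil peroxidase, was at 8.67 and 8.86 on the PR+/- arrays and at 6.999, 6.81, 8.68 and 8.52 in wild type. Prg2, the major basic protein, was at 11.61 and 11.66 on the PR+/- arrays and at 10.51, 10.26, 11.81 and 11.95 in wild type. For both genes the PR+/- arrays lay near wild-type replicates 3 and 4 and above replicates 1 and 2. The median of 7 measured eosinophil genes was 0.85, and it was 1.67 against wild-type replicates 1 and 2 and 0.03 against replicates 3 and 4. Alox15, an arachidonate lipoxygenase, was the 1 member that rose, by 1.57 ± 0.35 (adjusted p = 0.0320), where 2.19% of all genes rose. It was lost without PR+/- replicate 1 and without wild-type replicates 1, 3 or 4.

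Where 2.19% of all genes rose and 0.881% fell, 3 of 31 measured myeloid transcription factors rose and 3 fell. Beside Id2 these were Gfi1b, a transcriptional repressor that acts within the megakaryocyte, erythroid and basophil lineages (0.97 ± 0.23, adjusted p = 0.0403), and the repressor gene Bcl6 (1.52 ± 0.28, adjusted p = 0.0115), which rose. Beside Irf8 they were Irf5 (-1.11 ± 0.16, adjusted p = 0.00308) and Zeb2 (-0.86 ± 0.19, adjusted p = 0.0274), which fell. The genes at the head of granulocytic commitment did not pass. Spi1, which encodes the myeloid factor that binds the Csf1r promoter, was at 9.76 and 9.72 on the PR+/- arrays and at 9.40, 9.62, 9.48 and 9.35 in wild type. Cebpa was at 8.11 and 8.15 on the PR+/- arrays and at 7.93, 7.73, 7.81 and 7.65 in wild type. Both lay slightly above wild type, by 0.28 ± 0.19 and 0.35 ± 0.16. Cebpe, the factor of terminal granulocyte maturation, was at 9.22 and 9.59 on the PR+/- arrays and at 7.72, 8.36, 8.73 and 8.39 in wild type (adjusted p = 0.198), and Myc was at 10.34 and 10.67 on the PR+/- arrays and at 11.11, 11.47, 10.83 and 10.94 in wild type (adjusted p = 0.186). None of the 31 passed without PR+/- replicate 1, and 3 passed without wild-type replicate 3 or 4.

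Cytokine receptors moved in both directions. Of 19 measured receptors 4 rose and 2 fell, where 2.19% of all genes rose and 0.881% fell. Il3ra, the alpha chain of the interleukin-3 receptor, was at 9.68 and 9.11 on the PR+/- arrays, against 7.75, 7.56, 8.28 and 7.81 in wild type, a 2.93-fold rise (adjusted p = 0.00563). Csf2rb2, a beta chain specific to interleukin-3 in the mouse, was at 8.37 and 7.46 on the PR+/- arrays, against 4.77, 6.10, 5.62 and 5.75 in wild type, a 5.11-fold rise (adjusted p = 0.00828). Csf2rb, its close paralogue shared by interleukin-3, interleukin-5 and GM-CSF, rose by 0.95 ± 0.21 (adjusted p = 0.0301), and probes of such near-identical genes can cross-hybridise. Il6st, the signalling chain of the interleukin-6 family, was at 6.78 and 6.75 on the PR+/- arrays, against 8.20, 8.44, 8.13 and 8.11 in wild type, a 2.74-fold fall (adjusted p = 0.00456). Without PR+/- replicate 1 0 receptors were higher and 1 was lower, and without wild-type replicate 2, 3 or 4 the counts were 2 higher and 2 lower. Csf2rb was lost without each array in turn other than wild-type replicate 1. Csf3r, the G-CSF receptor of granulocytes, was at 9.29 and 9.01 on the PR+/- arrays and at 8.73, 8.75, 8.83 and 8.69 in wild type (adjusted p = 0.201).

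The list of retinoid metabolism and retinoid response genes also held the cytokine receptor gene Il3ra. It was the 1 gene of 18 measured members that passed, where 3.07% of all genes passed, and the other 17 did not. The median of that list was -0.04. Classical retinoid response genes did not pass: Stra6, a retinol transporter, differed by -0.36, and Cdkn1a, a cell cycle inhibitor, by 0.48 (adjusted p = 0.330 and 0.710). Retinoid direct-repeat elements, searched on both strands with the spacers of known receptor pairs, were found in 1 of the 270 promoters of genes that rose, that of Slc45a3, in 0 of 115 that fell and in 0.301% of all 12609.

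Megakaryocyte and platelet genes gave 3 rises and 0 falls among 15 measured, where 2.19% of all genes rose and 0.881% fell. Itga2b, the platelet integrin CD41, was at 8.53 and 7.75 on the PR+/- arrays, against 5.82, 6.15, 5.60 and 5.78 in wild type, a 4.93-fold rise (adjusted p = 0.000482). Its partner Itgb3 was at 6.53 and 5.70 on the PR+/- arrays, against 4.44, 4.52, 5.34 and 5.02 in wild type (adjusted p = 0.0375). Both chains of the integrin lay above wild type, while the platelet chemokine gene Pf4 was at 4.54 and 5.62 on the PR+/- arrays and at 7.68, 8.68, 6.39 and 6.16 in wild type (adjusted p = 0.135). Gata1, the erythroid, megakaryocyte and mast cell factor, was the 1 gene of 12 measured erythroid genes that passed, where 3.07% of all genes passed. It was at 6.33 and 6.21 on the PR+/- arrays, against 5.42, 5.05, 5.01 and 4.91 in wild type (adjusted p = 0.0156). It was lost without either PR+/- replicate. Of 12 measured B cell genes only Il7r passed, where 3.07% of all genes passed. It was lost without PR+/- replicate 1 and without wild-type replicates 2, 3 or 4.

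**Figure D5:**
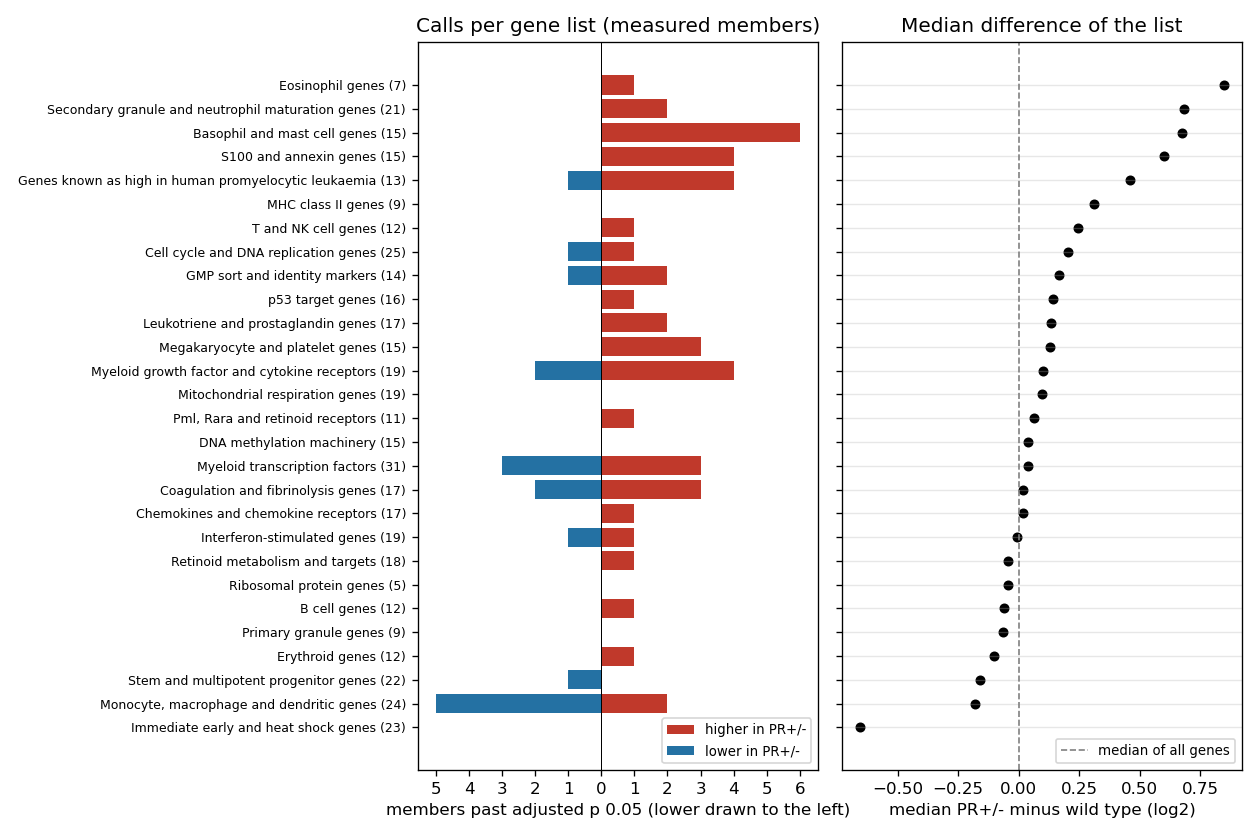
Gene lists with their number of measured members in brackets: members that rose (red, right) or fell (blue, left) past adjusted p 0.05, and the median difference of each list in log2 units with the median of all genes as a dashed line. Basophil and mast cell genes have the most rises, 6, and monocyte, macrophage and dendritic genes the most falls, 5.

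Of 25 measured cell cycle and replication genes 1 rose and 1 fell, with a median of 0.20, where 2.19% of all genes rose and 0.881% fell. Both are D-type cyclins, which start the cell cycle: Ccnd3 was at 9.83 and 9.44 on the PR+/- arrays, against 8.70, 7.91, 8.65 and 8.64 in wild type, a rise of 1.16 ± 0.22 (adjusted p = 0.0132). Ccnd1 was at 5.61 and 6.41 on the PR+/- arrays, against 7.75, 7.94, 7.12 and 7.16 in wild type, a fall of -1.48 ± 0.35 (adjusted p = 0.0421). Ccnd2 lay below wild type by -1.19 ± 0.32 and did not pass (adjusted p = 0.0646). The differences of the 3 cyclin genes thus did not share a direction. Ccnd3 was lost without PR+/- replicate 1, and Ccnd1 without each array in turn other than wild-type replicate 3.

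Lipid mediator genes gave 2 rises among 17 measured leukotriene and prostaglandin genes, where 2.19% of all genes rose and 0.881% fell. Alox5, the lipoxygenase that starts leukotriene synthesis, was at 7.17 and 7.41 on the PR+/- arrays, against 5.73, 6.00, 5.99 and 5.92 in wild type, a rise of 1.38 ± 0.20 (adjusted p = 0.00287), and Alox15 was the other. Among 19 measured interferon-stimulated genes 1 rose and 1 fell, where 2.19% of all genes rose and 0.881% fell. Ddx58, the RNA sensor RIG-I, rose by 0.96 ± 0.21 (adjusted p = 0.0247) and the GTPase gene Gbp3 fell by -1.04 ± 0.20 (adjusted p = 0.0128). Both were lost without either PR+/- replicate. Of 5 ribosomal protein, 19 mitochondrial respiration and 15 DNA methylation genes measured, 0 passed, where 3.07% of all genes passed. Dnmt3a was at 7.07 and 7.20 on the PR+/- arrays, against 7.47, 7.39, 7.30 and 7.59 in wild type, a difference of -0.30 ± 0.16 (adjusted p = 0.345).

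The same contrast was available on a Dnmt3a-/- background, with other arrays on both sides. There PR+/- Dnmt3a-/- GMP differed from Dnmt3a-/- GMP in 195 genes (1.24%), of which 107 were higher and 88 lower. Of these, 81 were also called between PR+/- and wild-type GMP, which is 16.7% of the 484 and 41.5% of the 195, and 63 were higher and 16 lower in both. The mean of the Y-linked genes was 6.98, 3.12, 6.75 and 7.01 on the PR+/- Dnmt3a-/- arrays, against 2.54, 2.88 and 2.91 on the Dnmt3a-/- arrays. The immediate early and heat shock list mean was 8.18, 8.09, 5.99 and 6.05 on the PR+/- Dnmt3a-/- arrays, against 6.53, 6.43 and 6.31 on the Dnmt3a-/- arrays. The part of both in this contrast, and in the test of the difference between the backgrounds, was not tested. Thy1 rose by 4.89 ± 0.37 without and by 2.83 ± 0.33 with the Dnmt3a deletion, and Cdh1 by 4.54 ± 0.35 and 2.83 ± 0.30. Cpa3 rose by 3.70 ± 0.36 and 1.77 ± 0.31, and Ly86 fell by -2.61 ± 0.25 and -1.85 ± 0.22. For none of these 4 genes did the test of the difference between the backgrounds pass (adjusted p = 0.165, 0.194, 0.169 and 0.346). Other genes that rose without the deletion did not pass with it. There Ccr1 differed by -0.15 ± 0.47, Anxa1 by -0.06 ± 0.26 and Cd33 by 0.36 ± 0.31. The Dnmt3a-/- arrays, the reference of that contrast, already lay above wild type for these genes. The means of Ccr1, Anxa1 and Cd33 were 5.66, 10.19 and 7.71 there, against 3.9996, 9.43 and 6.44 in wild type. On the PR+/- Dnmt3a-/- arrays the means were 5.51, 10.13 and 8.07. These small differences therefore do not show a return to the wild-type level. The test of the difference did not pass for these 3 either (adjusted p = 0.165, 0.212 and 0.183).

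That test passed in 5 genes of all 15781 (0.0317%): Alox5, S100a4, Gdf3, Prss34 and H2-Eb1. Alox5 and S100a4 moved in opposite directions, with S100a4 at 10.36 and 9.70 on the PR+/- arrays and 8.67, 8.85, 7.83 and 8.68 on the PR+/- Dnmt3a-/- arrays, against 8.59, 8.57, 8.30 and 8.23 in wild type and 10.11, 10.22 and 9.52 on the Dnmt3a-/- arrays. S100a4 was thus high in PR+/- and in Dnmt3a-/- GMP and lower in the other groups. The difference of the 2 effects was -3.05 ± 0.39 for S100a4 (adjusted p = 0.00976) and -2.31 ± 0.26 for Alox5 (adjusted p = 0.00769). In 3 of the 4 PR+/- Dnmt3a-/- arrays Ctsg stood between 6.59 and 7.96, against 11.12 in the remaining one, and the part of these arrays in the test was not tested.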

How the data were processed

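RNA from sorted progenitors was hybridised to exon arrays after amplification from 20 ng of total RNA, per the labels' protocols. The authors deposited 1 linear intensity per probe set and array; RMA, Partek and mm9 are listed, with neither role nor version, per the submitters' processing notes. The log2 of each deposited intensity was taken, and a gene's value is the mean over probe sets that carry its symbol alone: 179496 of 194293 probe sets, giving 15781 genes (median 9 each). RefSeq (GRCm38.p6) replaced 2039 older symbols. Array medians lay between 53.0 and 56.8, and no further scaling or filter was applied. The number of arrays limits the precision.

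One group-means fit of the 13 GMP arrays was made in R 4.3.3 with limma 3.58.1 (two-sided, eBayes), 9 residual degrees of freedom, p-values adjusted over all genes by Benjamini-Hochberg and a threshold of 0.05. For 2 against 4 arrays the smallest exact permutation p is 0.133, so no permutation test is given. The fit was tested on simulated data. The genes named are the 15 largest rises and falls among the called genes whose groups do not overlap, called members of 30 lists, up to 4 further members per described list and fixed genes of interest; Ccr2, F13a1, Ltf, Prg2, S100a8, S100a9, Gdf3 and Slc45a3 were chosen after their values were seen. The members and the lists were chosen with earlier results of these data known. A list is described by counts and medians, without a test. Elane, Csf2ra, Xist and Ly6g are not analysed here, since no probe set carries their symbol alone. The alternatives tried are another set of arrays, another summary of probe sets, other scaling and priors, a minimum fold, wild-type arrays split by title number, the Y-linked signal and leaving out each array.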

Additional observations from a re-analysis of the deposited data

Results flagged for a closer look

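Among 188 named genes, 10 had 1 wild-type GMP array that stood apart from the other 3 by Dixon's criterion, which sets the gap to the nearest array against the range; chance alone gives this in about 1 in 20 groups. Wild-type replicate 4 stood low for the Y-linked genes Eif2s3y (3.03) and Kdm5d (3.48) and for Klf4 (6.73). Replicate 3 stood high for Adgre1 (5.76) and for Ms4a2 (6.50), and both genes still lay below both PR+/- arrays. Replicate 1 stood high for Camp (10.1) and Oasl2 (5.72) and low for Rpl8 (11.3). Replicate 2 stood low for Ccnd3 (7.91) and high for Tdg (5.28).

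The effect of PR+/- differed between the Dnmt3a-/- background and the background with Dnmt3a in 5 genes, by limma's test of the difference. The difference of effects was -2.31 for Alox5, -2.04 for the growth factor gene Gdf3, -3.47 for the MHC class II gene H2-Eb1, -2.91 for Prss34 and -3.05 for S100a4. H2-Eb1 was between 4.88 and 6.20 on the PR+/- Dnmt3a-/- arrays and between 8.35 and 8.84 on the Dnmt3a-/- arrays, while PR+/- and wild-type GMP both lay between 5.33 and 6.23.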

How the results depend on the processing

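The count of 484 was 269 in a fit of the 6 arrays alone, 850 in a fit of all 19 and 262 with the median of the probe sets. It was 1045 with array weights and 36 with a minimum fold of 1.5. It was 218 against wild-type replicates 3 and 4 alone and 163 on arrays of high Y-linked signal alone. Of the 484, 233 were among the 269, 471 among the 850, 223 among the 262 and all 484 among the 1045. All of the 36 belonged to the 484, as did 177 of the 218 and 152 of the 163. Leaving out 1 array gave 43 to 432 calls. Of those, 43 came without PR+/- replicate 1, 284 without PR+/- replicate 2 and 290 without wild-type replicate 4. With 2 alternatives chosen after seeing the data, 500 genes passed without the arrays of high immediate early level and 552 without the PR+/- Dnmt3a-/- arrays. Only 311 of the 500 and 404 of the 552 were among the 484. The share of calls that were higher ran from 64.4% to 86.1%, against 71.3%. The minimum fold makes fewer calls by construction; the cause of the other changes was not tested. Signal over background limits 9 called genes with 1 group mean below 2.78 and 2 with both. No paired analysis was possible because the wild-type titles carry no replicate numbers shared with the PR+/- arrays.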
